A study of Mus musculus with 386 samples.

Results

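Potassium channel genes were taken as the genes whose symbol begins with Kcn, with transcripts of the opposite strand left out. The rule was met by 87 of the 18820 genes that the arrays measured under a single symbol. They comprised 34 voltage-gated channel genes (Kcna to Kcnd, Kcnf to Kcnh, Kcnq, Kcns and Kcnv), 15 inward rectifiers (Kcnj), 14 genes of the tandem-pore-domain leak channels (Kcnk), 8 calcium- or sodium-activated channels (Kcnma, Kcnn, Kcnt and Kcnu) and 16 genes for accessory subunits and regulators (Kcnab, Kcne, Kcnip, Kcnmb and Kcnrg). Potassium channels let potassium leave or enter a cell along its gradient. In neurons the voltage-gated genes shape the action potential and the firing pattern, in glia and in kidney tubules inward rectifiers carry potassium across the membrane, and leak channels set the resting potential. Several Kcnf, Kcng, Kcns and Kcnv subunits form no channel alone and change the properties of Kcnb partners.

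The study measured RNA from 4 organs (brain, kidney, lung and liver) of mice aged 23 days, of the inbred lines CAST, PWK and WSB and of the 6 reciprocal F1 crosses between them, of both sexes. The labels name no transgene or treatment, and say that the animals were bred within a few generations of purchased founder stock. The dam's strain comes first in the name of a cross: a CASTxPWK mouse had a CAST mother. There were 386 arrays, 85 of brain (44 of females and 41 of males), 51 of each sex of kidney, 49 of females and 52 of males of liver, and 98 of lung (50 and 48). A cross was represented by 11 to 13 animals and had 6 to 13 arrays in a tissue, and 67 animals contributed every tissue. Values are log2 signals, on which a difference of 1 is a doubling, and array medians lay between 5.89 and 6.36. Precision was limited by the number of arrays, and levels of different genes were not compared, because each gene has its own probes.

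The markers of each labelled tissue were high in it. The mean of 5 neuron markers was 12.22 in brain against 5.52 to 6.57 elsewhere, that of proximal tubule markers 12.51 in kidney, that of hepatocyte markers 13.47 in liver and that of alveolar markers 12.72 in lung. Heart muscle markers reached 9.79 in lung, where 8 of 9 had their highest level, and brown fat markers ran from 6.23 to 11.03 across kidney arrays. On 2 arrays the sex-linked genes did not match the labelled sex (PWKxCAST brain replicate 9 and PWKxWSB liver replicate 8). Markers of another tissue were screened with the neuron, proximal tubule, alveolar and exocrine pancreas lists only. On 10 arrays such a mean lay over 1.5 log2 units above the tissue's median. All of these arrays were kept, and a call of a named gene that ends without them is given with both values. Hepatocyte markers were not screened. Their mean ran from 6.02 to 9.72 over brain arrays, from 6.66 to 11.88 over kidney arrays and from 6.74 to 12.40 over lung arrays. In bulk tissue, fewer cells of a type and less RNA per cell cannot be told apart.

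Most potassium channel genes had their highest signal in brain. A gene was said to lead in a tissue when it was at least 1 log2 unit higher there than in each of the other 3, with a limma adjusted p under 0.05 each time. By this rule 48 of the 87 (55.2%) led in brain, against 10.5% of all genes. In kidney 5 led (5.75%, against 2.95% of all genes), in lung 6 (6.90%, against 6.55%) and in liver 0 (against 3.93%), and 28 led nowhere. The median member was 2.28 log2 units higher in brain than in kidney, 2.79 higher than in liver and 2.21 higher than in lung, while the corresponding medians over all genes were -0.09, -0.19 and 0.01. Closest to the rule's limit, Kcnn3 led in brain by 1.01, whereas Kcnk2 in brain and Kcnk6 in lung were 1.0 above the next tissue and fell short.

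**Figure D1:**
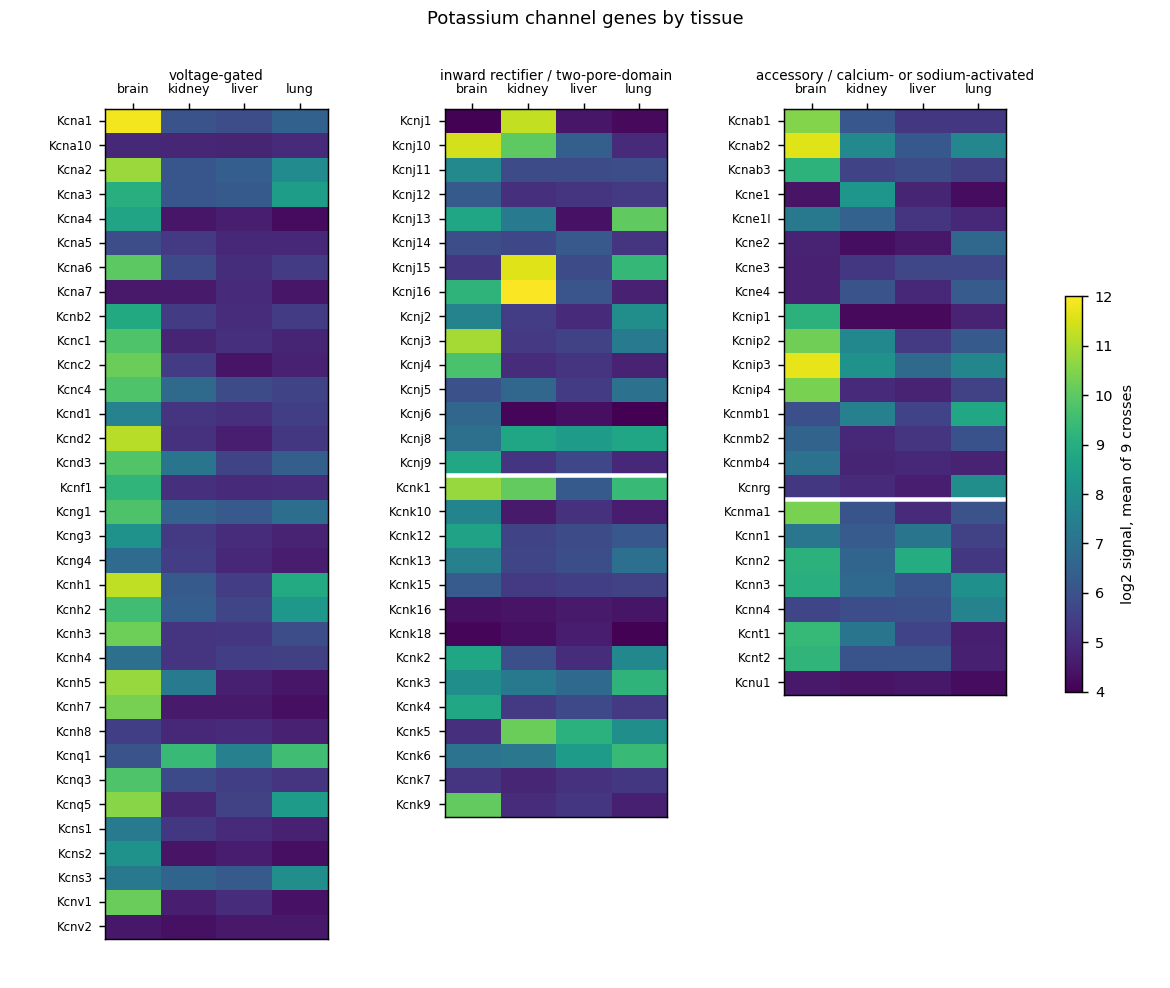
Mean log2 signal of the 87 potassium channel genes (rows, grouped by subfamily) in brain, kidney, liver and lung (columns); each cell is the mean over the 9 crosses and the color gives the log2 signal. Most rows are brightest in brain, and kidney stands out for Kcnj1, Kcnj15, Kcnj16, Kcne1 and Kcnk5.

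Among voltage-gated genes 26 of 34 led in brain and none led elsewhere. Their median level was 9.40 in brain and 5.35 in kidney, 5.04 in liver and 5.27 in lung. The lead was complete in several families, with 3 of 3 Kcnc, 3 of 3 Kcnd and 3 of 3 Kcng genes, and held for 6 of 7 Kcnh genes and 4 of 8 Kcna genes. Kcnd2, the pore of a fast-inactivating dendritic current, had the widest lead: the 85 brain arrays ran from 10.77 to 11.36 with a median of 11.16, while the highest of all other arrays was a lung array at 6.39. Its brain level was 5.84 ± 0.04 (SE) above the next tissue. Kcnh7, of the ERG channel family, led by 5.78 ± 0.03, with brain arrays at 9.93 to 10.93 (median 10.35) and no other array above 5.42. The axonal channel Kcna1 led by 5.39 ± 0.04 and the silent subunit Kcnv1 by 5.16 ± 0.04. In none of these 4 genes did a brain array overlap an array of another tissue.

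Not all voltage-gated genes were confined to brain. Kcna3, a channel of neurons and of T cells, had a mean of 9.03 in brain and 8.49 in lung, and its brain and lung arrays overlapped (8.53 to 9.56 and 7.78 to 9.07). Markers of T and B cells were present in lung, where their mean ran from 6.30 to 8.93, and their part in the level of Kcna3 was not tested. Kcnq5, Kcnh1 and Kcnh2 led in brain with means of 10.58, 11.23 and 9.56, and had lung means of 8.44, 8.89 and 8.28. Kcnq1, the partner of Kcne1 in epithelia and heart, was the exception of the group. It trailed in brain, lower there than in each other tissue by at least 1 log2 unit: brain arrays ran from 5.50 to 6.55, against 8.95 to 9.73 in kidney and 9.12 to 9.87 in lung, with no overlap. In brain 3 members trailed (Kcnq1, Kcnj8 and Kcnk5, against 5.87% of all genes).

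Inward rectifiers were spread over the tissues more than the voltage-gated genes: 6 of 15 led in brain, 3 in kidney, 1 in lung and 5 nowhere. Kcnj1, the potassium secretion channel of the thick limb and collecting duct, ran from 10.54 to 11.76 over the kidney arrays, with a median of 11.29. Its highest value elsewhere was 7.31, on a liver array that also carried proximal tubule markers (WSBxWSB liver replicate 8, marker mean 9.28 against a liver median of 5.42). The lead in kidney was 6.78 ± 0.05. Kcnj16 and Kcnj10, which pair in the basolateral membrane of the distal nephron and in glia, were both well expressed in kidney and brain. Kcnj16 led in kidney by 2.75 ± 0.05 with means of 11.95 in kidney and 9.20 in brain, and Kcnj10 led in brain by 1.43 with 11.44 in brain and 10.01 in kidney. Both trailed in lung, at 4.75 and 4.95. In lung 4 members trailed (Kcnj10, Kcnj16, Kcnn2 and Kcnt2, against 0.951% of all genes).

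Kcnj15 also led in kidney, by 2.30 ± 0.04, with kidney arrays at 11.10 to 12.19 (median 11.62), lung arrays at 8.47 to 9.95 and a brain mean of 5.25. Kidney and lung arrays of this gene did not overlap. Kcnj13, a channel of epithelia such as choroid plexus, led in lung by 1.34 ± 0.05: lung arrays ran from 9.15 to 10.83 (median 10.08) and brain arrays from 7.47 to 10.19 (median 8.75). Lung and brain arrays overlapped for this gene, and in brain the choroid plexus markers ran from 7.18 to 9.19. Of the 5 measured markers on that list only 1 was highest in brain, and their mean was 8.17 in brain and 7.98 in kidney. Kcnj8, the pore of the ATP-sensitive channel of vascular muscle, was lowest in brain at 6.95 and lay between 8.39 and 8.75 in the other 3 tissues.

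Of the 14 tandem-pore-domain genes 4 led in brain and 8 led nowhere. Among these 8, Kcnk7, Kcnk15, Kcnk16 and Kcnk18 had low signals, with means of at most 6.31 in any tissue. Kcnk1, Kcnk2 and Kcnk13 were highest in brain, by less than 1 log2 unit. Kcnk9, an acid-sensitive leak channel, led in brain by 4.81 with a brain mean of 10.09 and no kidney, liver or lung array above 6.14. Kcnk5, an alkaline-activated channel known from proximal tubule, led in kidney by 1.12 ± 0.05, with means of 10.21 in kidney, 9.09 in liver, 7.99 in lung and 5.10 in brain. Its kidney and liver arrays overlapped (8.92 to 11.11 and 7.74 to 10.01). Kcnk3, the acid-sensitive leak channel of pulmonary artery muscle, led in lung by 1.22 ± 0.04 with a mean of 9.20 there. Kcnk1 was at 10.77 in brain, 10.09 in kidney and 9.40 in lung but 6.25 in liver, where it trailed. In liver 4 members trailed (Kcnk1, Kcnab2, Kcnj13 and Kcnma1, against 4.25% of all genes), and in kidney 0 did (against 0.478%).

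Of the 8 calcium- or sodium-activated genes 4 led in brain. Kcnma1, the large-conductance channel, had a mean of 10.39 in brain and 4.95 to 6.09 elsewhere. Kcnn2, a small-conductance channel, was high in 2 tissues, with brain arrays at 8.61 to 9.46 and liver arrays at 8.24 to 9.62, which overlapped along most of their range, and a lung mean of 5.30. Kcnn4, the intermediate-conductance channel of epithelia and lymphocytes, led in lung by 1.62 ± 0.03, at 7.58 against 5.66 to 5.96 elsewhere.

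Accessory genes were divided among the tissues by family. All 3 Kcnab genes, for cytosolic subunits of Kcna channels, and all 4 Kcnip genes, for calcium-binding subunits of Kcnd channels, led in brain, whereas 0 of the 5 Kcne genes did. Kcne1 led in kidney by 3.36 ± 0.04: kidney arrays ran from 7.22 to 8.87 (median 8.26), and no other array exceeded 6.32. Kcne2 led in lung by 1.93 ± 0.04 with a mean of 6.71, and Kcne3 led nowhere, with means between 4.74 and 5.72. Kcnmb1, the smooth muscle subunit of the Kcnma1 channel, led in lung by 1.26 ± 0.03 with a mean of 8.75. The smooth muscle markers had their highest mean in lung as well (11.33, 5 of 5 markers), and their part in the level of Kcnmb1 was not tested. Kcnrg, a regulator that hinders the assembly of voltage-gated channels, had the widest lung lead among the members, 2.65 ± 0.03, with lung arrays at 7.14 to 8.82 and no array of another tissue above 5.92.

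Neighbouring potassium channel genes were compared by their leading tissue. By the GRCm38.p6 annotation, 10 pairs of members were adjacent protein-coding genes, and 2 of these pairs led in the same tissue: Kcnj9 with Kcnj10, and Kcna1 with Kcna6, all in brain. Kcnj6 led in brain and its neighbour Kcnj15 in kidney, Kcnip1 in brain and its neighbour Kcnmb1 in lung, and Kcnj1 led in kidney while its neighbour Kcnj5 led nowhere. In each pair not named here a gene also led nowhere, so no leading tissue could be shared. No share was computed for pairs that are not neighbours, so the count is a description only.

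Promoters of brain-led members had a higher median count of CG dinucleotides than those of kidney-led and lung-led members. Promoters of 300 bases, 250 before to 50 after the start of transcription, were listed by RefSeq (GRCm38.p6) for 67 of the 87 members, and CG dinucleotides were counted in each, with the median over a gene's listed starts. The median count was 17.5 in 36 brain-led members (range 3 to 49, GC content 63.8%), 3.0 in 4 kidney-led members (range 2 to 26, 47.9%) and 5.0 in 5 lung-led members (range 1 to 6, 49.7%), so the ranges overlapped. Over all genes the medians were 15 in 14749 promoters, 18 in 1520 brain-led genes, 9.0 in 420 kidney-led genes and 11 in 928 lung-led genes. With so few kidney- and lung-led members these values are a description without a test. The motif TATAAA, searched on both strands, was in 5 of the 67 members (7.46%) and in 13.8% of all genes with a listed promoter. The motif GGACAGC, part of the binding site of the neuronal repressor REST, was in 11 members (16.4%) and in 8.41% of all genes. It was in 5 of 36 brain-led members (13.9%, against 10.7% of all brain-led genes). Of members leading nowhere 5 of 22 had it (22.7%, against 8.01% of all such genes), of kidney-led members 1 of 4 and of lung-led members 0 of 5. A match is a description of the letters only.
The promoters of 2 brain-led members, 2 kidney-led members and 1 lung-led member are shown as examples, picked from counts above the median of the brain-led group and at or below that of the others. They do not show the overlap: the kidney-led Kcnk5 had 26 CG, and the brain-led Kcnab1 and Kcnf1 had 3 each. Each runs 5′ to 3′ along the gene's strand, capitals mark CG, and in Kcnj13 also TATAAA, whose first base lies 29 bases before the start. Kcnj15 holds TATAAA on the opposite strand, which is not marked. Kcnd2 is at chr6:21215096-21215395 (plus strand, 26 CG), Kcnj10 at chr1:172340960-172341259 (plus, 21 CG), Kcnj1 at chr9:32393735-32394034 (plus, 2 CG), Kcnj15 at chr16:95257308-95257607 (plus, 2 CG) and Kcnj13 at chr1:87394680-87394979 (minus, 5 CG).
Kcnd2: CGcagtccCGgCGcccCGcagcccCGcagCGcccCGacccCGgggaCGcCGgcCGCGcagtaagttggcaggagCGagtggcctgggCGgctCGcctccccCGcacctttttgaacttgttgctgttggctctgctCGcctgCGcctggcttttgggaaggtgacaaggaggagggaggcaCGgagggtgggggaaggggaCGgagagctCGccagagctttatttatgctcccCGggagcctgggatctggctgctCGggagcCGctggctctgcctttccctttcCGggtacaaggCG
Kcnj10: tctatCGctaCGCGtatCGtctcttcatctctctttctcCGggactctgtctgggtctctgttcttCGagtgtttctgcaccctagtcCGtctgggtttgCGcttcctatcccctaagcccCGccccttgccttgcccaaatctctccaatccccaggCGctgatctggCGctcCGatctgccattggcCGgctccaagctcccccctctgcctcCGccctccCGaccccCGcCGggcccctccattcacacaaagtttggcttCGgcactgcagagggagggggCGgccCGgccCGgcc
Kcnj1: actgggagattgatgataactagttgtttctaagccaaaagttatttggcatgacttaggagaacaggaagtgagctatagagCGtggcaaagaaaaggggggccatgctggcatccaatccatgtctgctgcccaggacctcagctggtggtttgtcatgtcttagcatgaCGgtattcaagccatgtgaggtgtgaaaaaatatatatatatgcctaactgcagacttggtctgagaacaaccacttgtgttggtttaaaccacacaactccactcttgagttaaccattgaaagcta
Kcnj15: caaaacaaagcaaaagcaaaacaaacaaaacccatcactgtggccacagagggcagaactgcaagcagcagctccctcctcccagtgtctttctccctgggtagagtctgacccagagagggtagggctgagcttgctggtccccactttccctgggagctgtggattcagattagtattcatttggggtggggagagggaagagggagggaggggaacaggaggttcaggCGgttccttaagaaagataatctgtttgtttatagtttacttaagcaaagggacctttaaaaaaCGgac
Kcnj13: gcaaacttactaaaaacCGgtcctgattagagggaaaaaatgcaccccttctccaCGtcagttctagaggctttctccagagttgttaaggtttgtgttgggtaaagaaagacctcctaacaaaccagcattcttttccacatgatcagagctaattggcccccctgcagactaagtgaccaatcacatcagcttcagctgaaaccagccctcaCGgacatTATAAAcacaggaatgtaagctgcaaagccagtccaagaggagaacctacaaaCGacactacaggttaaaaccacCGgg

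Strains were compared tissue by tissue, over the genes whose mean signal was at or above the tissue's 40th percentile (11292 genes). This filter passed 63 of the 87 members in brain, 29 in lung, 28 in kidney and 20 in liver. It passed 74 in at least 1 tissue and 9 in all 4. The remaining 13, none of which led in a tissue, were not compared between strains. A member low in 1 strain could pass through the arrays of the others. All arrays lay below the limit for Kcng4 in CAST brain, Kcnt2 in CAST liver, and Kcnj5 and Kcne1l in inbred PWK kidney. The median did for Kcne2 in CAST lung and Kcnj10 in CAST liver. Such members are counted in the shares that follow, so those shares rest partly on the filter. Called means a limma adjusted p under 0.05. In brain 45 of 63 members (71.4%, against 70.7% of all genes tested) were called between at least 1 pair of strains, in kidney 24 of 28 (85.7%, against 84.7%), in liver 13 of 20 (65.0%, against 79.1%) and in lung 26 of 29 (89.7%, against 84.7%). These shares lay near the background, or below it in liver. Differences of at least 0.5 log2 units were called for 17 members in lung (58.6%, against 27.2%), 14 in kidney (50%, against 25.2%), 9 in liver (45.0%, against 29.8%) and 8 in brain (12.7%, against 15.8%). The median size of the difference over the 3 pairs of strains was 0.23 to 0.37 in lung (0.18 to 0.19 over all genes), 0.23 to 0.38 in liver (0.19 to 0.20), 0.24 to 0.39 in kidney (0.18) and 0.16 to 0.18 in brain (0.14 to 0.16). The excess of differences of at least 0.5 over all genes depended on the filter. Among genes above the 60th percentile they were called for 1 of 8 members in kidney (12.5%, against 19.8%) and 7 of 12 in lung (58.3%, against 20.6%), and without a filter for 14 of 87 in liver (16.1%, against 21.1%).

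**Figure D2:**
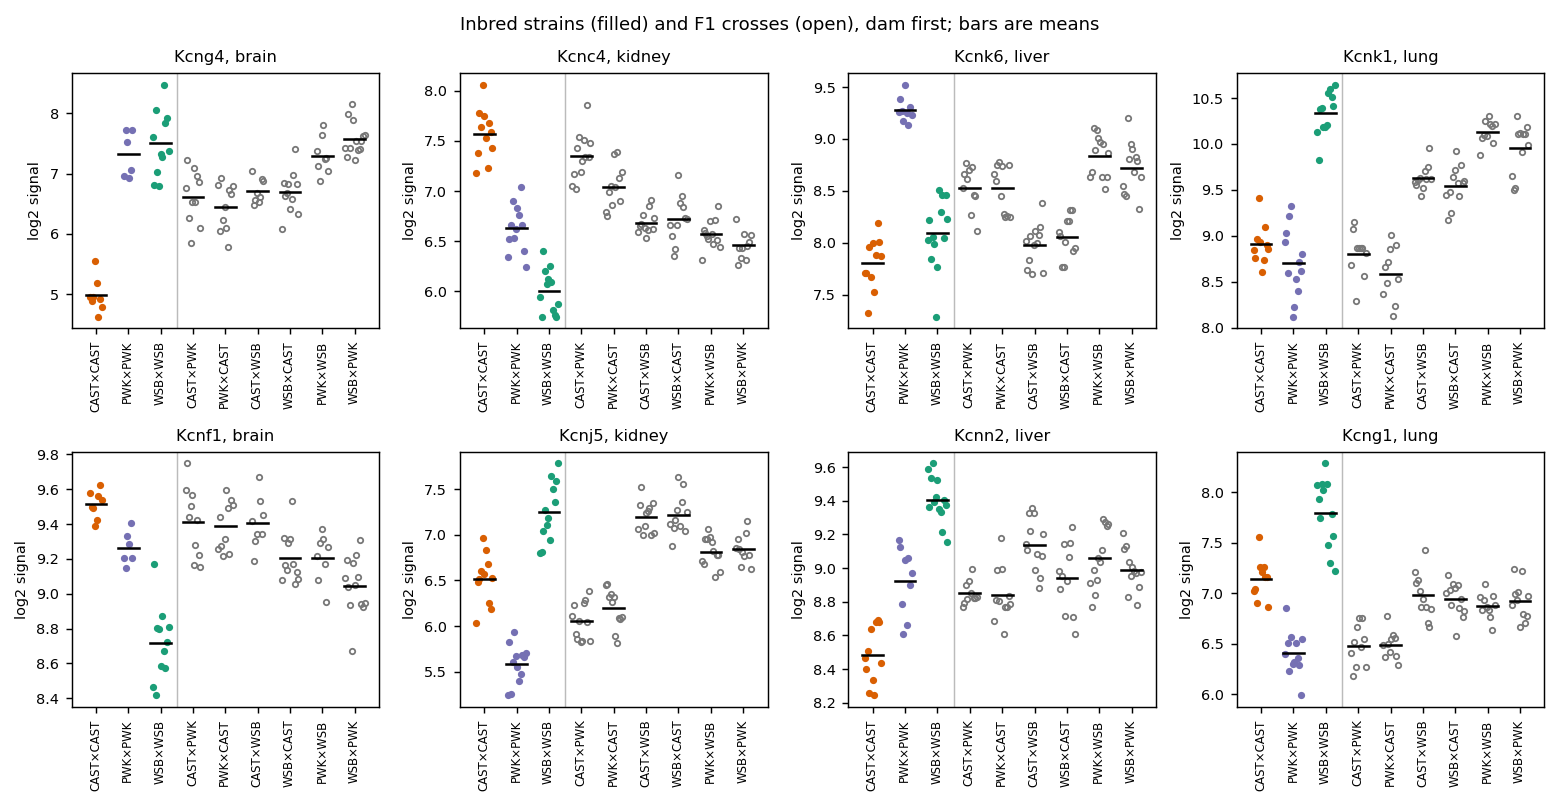
Log2 signal of Kcng4 and Kcnf1 in brain, Kcnc4 and Kcnj5 in kidney, Kcnk6 and Kcnn2 in liver, and Kcnk1 and Kcng1 in lung by cross (x axis); each point is 1 array, filled for inbred and open for F1 crosses. Kcng4 in CAST brain reaches 5.55 at most, below every PWK and WSB array, and Kcnk1 in WSB lung lies above every CAST and PWK array.

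In brain the widest strain difference was in Kcng4, a silent subunit. The 8 CAST arrays ran from 4.62 to 5.55 (median 4.94), the 6 PWK arrays from 6.92 to 7.73 (median 7.29) and the 11 WSB arrays from 6.79 to 8.47 (median 7.38), so that CAST did not overlap either strain. CAST minus PWK was -2.33 ± 0.20 (SE; limma adjusted p = 4.21e-16), CAST minus WSB -2.56 ± 0.17 (adjusted p = 4.33e-22) and PWK minus WSB -0.23 ± 0.19 (adjusted p = 0.359). Kcng3, of the same silent family, went the other way: CAST arrays ran from 8.38 to 9.14 (median 8.86), PWK from 7.65 to 8.47 (median 7.89) and WSB from 7.38 to 8.19 (median 7.93). CAST exceeded PWK by 0.85 ± 0.16 and WSB by 0.95 ± 0.13, and overlapped PWK but not WSB. The silent subunit Kcnf1 was graded, with CAST at 9.39 to 9.63 (median 9.52), PWK at 9.15 to 9.41 (median 9.25) and WSB at 8.42 to 9.17 (median 8.72). Its CAST to WSB difference was 0.80 ± 0.07 (adjusted p = 4.89e-15), and its smaller CAST to PWK difference of 0.25 (adjusted p = 0.0197) fell to 0.19 (adjusted p = 0.103) with each array centred on its median and was not called without PWK replicate 1. Kcnd3, an A-type channel, was 0.56 higher in CAST than in WSB as measured by its brighter probe cluster, but by 0.13 (adjusted p = 0.0604) as the mean of both of its clusters, where it was no longer called. Kcnq3, a subunit of the M-current, exceeded its PWK level by 0.53 and its WSB level by 0.60 in CAST.

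In kidney differences of at least 0.5 were called for 5 of 6 accessory genes tested, 3 of 4 calcium- or sodium-activated genes, 2 of 4 tandem-pore-domain genes, 2 of 7 voltage-gated genes and 2 of 7 inward rectifiers, with no test between families. Kcnc4, a fast-inactivating channel, ran from 7.18 to 8.06 in 11 CAST arrays (median 7.58), from 6.24 to 7.04 in 12 PWK arrays (median 6.64) and from 5.75 to 6.40 in 12 WSB arrays (median 6.0). CAST overlapped neither strain, and was 1.57 ± 0.08 above WSB (adjusted p = 1.6e-31) and 0.94 ± 0.08 above PWK. Kcnj5, a G-protein-gated inward rectifier, had the order WSB over CAST over PWK: PWK ran from 5.25 to 5.94 (median 5.64), CAST from 6.04 to 6.96 (median 6.52) and WSB from 6.81 to 7.78 (median 7.22). PWK minus WSB was -1.67 ± 0.09 (adjusted p = 6.01e-32) with no overlap, while CAST and WSB overlapped. Kcnab2 was high in PWK, at 7.93 to 8.76 (median 8.47) against 6.98 to 7.51 in CAST (median 7.13) and 7.10 to 7.66 in WSB (median 7.42). PWK overlapped neither, and the CAST to PWK difference was -1.27 ± 0.09 (adjusted p = 1.53e-23).

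Kcne1, the kidney-led accessory subunit, was low in CAST kidney, at 7.22 to 7.88 (median 7.53), against 7.84 to 8.55 in PWK (median 8.33) and 8.21 to 8.64 in WSB (median 8.44). CAST was 0.91 ± 0.09 below WSB (adjusted p = 9.18e-15) without overlap. Its partner Kcnq1 differed less, by -0.29 ± 0.05 between CAST and PWK and -0.12 ± 0.05 between CAST and WSB. The other kidney-led genes also moved: Kcnk5 was lower in CAST by 0.91 ± 0.13 against PWK and by 0.96 ± 0.13 against WSB, Kcnj1 was lower in PWK than in WSB by 0.40 (adjusted p = 6.62e-07), Kcnj15 was lower in PWK than in WSB by 0.48, and Kcnj16 was lower in CAST than in either strain by 0.30 ± 0.04. Kcnt1, a sodium-activated channel, was higher in WSB than in PWK (PWK minus WSB -1.08, adjusted p = 2.01e-20). Its smaller CAST to WSB difference of -0.25 (adjusted p = 0.0112) turned to 0.17 (adjusted p = 0.654) with the mean of the exocrine pancreas markers as a covariate. Those markers ran from 6.21 to 6.85 in WSB kidney and from 4.89 to 5.71 in CAST and PWK kidney, without overlap, and 3 of the 5 lay below the kidney filter. In the same fit the PWK to WSB difference of Kcnc4, 0.63 ± 0.08, became 0.52 (adjusted p = 0.0556).

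In liver, where no member led, the called differences mostly set PWK above CAST. Between CAST and PWK 10 of 20 members were called (50.1% of all genes tested were called in either direction), 9 of them lower in CAST. Between PWK and WSB 10 were called (55.3% of all genes in either direction), 9 of them higher in PWK. The directions were not counted over all genes, so a shift shared by liver genes at large cannot be told apart from one of these members. Kcnk6, a weakly active tandem-pore-domain gene, ran from 9.14 to 9.52 in 9 PWK arrays (median 9.26), from 7.32 to 8.19 in 11 CAST arrays (median 7.88) and from 7.29 to 8.51 in 13 WSB arrays (median 8.06). PWK overlapped neither strain, and the CAST to PWK difference was -1.49 ± 0.09 (adjusted p = 3.52e-26). Kcnk5 followed the same order, with CAST at 7.74 to 9.27 (median 8.17), WSB at 8.27 to 9.32 (median 8.90) and PWK at 9.34 to 10.01 (median 9.57), a CAST to PWK difference of -1.4 ± 0.13. Kcnj10 ran from 5.04 to 6.23 in CAST (median 5.77), from 5.84 to 7.43 in WSB (median 6.64) and from 6.75 to 7.49 in PWK (median 7.17), and the sodium-activated channel Kcnt2 from 4.79 to 5.41, 5.06 to 6.70 and 6.25 to 7.08 (medians 5.15, 5.65 and 6.51). CAST and PWK did not overlap in any of these 4 genes. Kcnn2 stood out with WSB as the highest strain: CAST ran from 8.24 to 8.69 (median 8.46), PWK from 8.61 to 9.17 (median 8.97) and WSB from 9.15 to 9.62 (median 9.39), with CAST 0.92 ± 0.06 below WSB (adjusted p = 2.79e-24).

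In lung Kcnk1, Kcng1 and Kcne2 had their highest signal in WSB. Kcnk1, a weakly conducting leak channel, ran from 9.82 to 10.64 in 12 WSB arrays (median 10.38), against 8.60 to 9.41 in 10 CAST arrays (median 8.88) and 8.12 to 9.33 in 12 PWK arrays (median 8.67), with no overlap. The difference was -1.43 ± 0.10 for CAST against WSB (adjusted p = 1.6e-22) and -1.64 ± 0.10 for PWK against WSB (adjusted p = 8.24e-28). Kcng1, a silent subunit, was lowest in PWK at 5.99 to 6.85 (median 6.38), with CAST at 6.86 to 7.56 (median 7.16) and WSB at 7.22 to 8.29 (median 7.86), and PWK did not overlap either. The lung-led Kcne2 lay at 5.46 to 6.47 in CAST (median 5.84), 6.02 to 7.01 in PWK (median 6.55) and 6.69 to 7.81 in WSB (median 7.17), and CAST minus WSB was -1.42 ± 0.13 without overlap. Other lung-led genes differed by less: Kcnj13 was lower in CAST than in PWK by 0.87 ± 0.07, Kcnrg was lower in CAST than in WSB by 0.73, Kcnk3 differed by at most 0.27, and Kcnmb1 was called between no pair of strains.

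The G-protein-gated pair Kcnj3 and Kcnj5, which form the atrial acetylcholine-gated channel, varied widely within strains in lung. Kcnj3 ran from 6.87 to 8.48 in CAST (median 7.78), from 5.21 to 8.14 in PWK (median 6.02) and from 7.02 to 8.95 in WSB (median 7.46), so all strains overlapped. CAST minus PWK was 1.53 ± 0.24 (adjusted p = 7.34e-08) and PWK minus WSB -1.48 ± 0.23 (adjusted p = 4.14e-08). For Kcnj5 these differences were 0.98 ± 0.21 and -1.47 ± 0.20, and CAST minus WSB was -0.49 ± 0.21 (adjusted p = 0.0349). The mean of the heart muscle markers on the same arrays ran from 8.71 to 10.51 in CAST (median 9.78), from 8.08 to 10.84 in PWK (median 8.83) and from 9.52 to 11.44 in WSB (median 10.26). With that mean as a covariate PWK lay below CAST by 1.01 ± 0.10 for Kcnj3 (adjusted p = 1.96e-14) and by 0.56 ± 0.10 for Kcnj5. Between PWK and WSB the difference became -0.38 ± 0.11 for Kcnj3 (adjusted p = 0.00214) and -0.57 ± 0.11 for Kcnj5, and between CAST and WSB that of Kcnj3 went from 0.05 (adjusted p = 0.883) to 0.63 ± 0.11 (adjusted p = 2.2e-07). The CAST to WSB difference of Kcnj5 became -0.01 ± 0.10 (adjusted p = 0.926) and was no longer called.

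**Figure D3:**
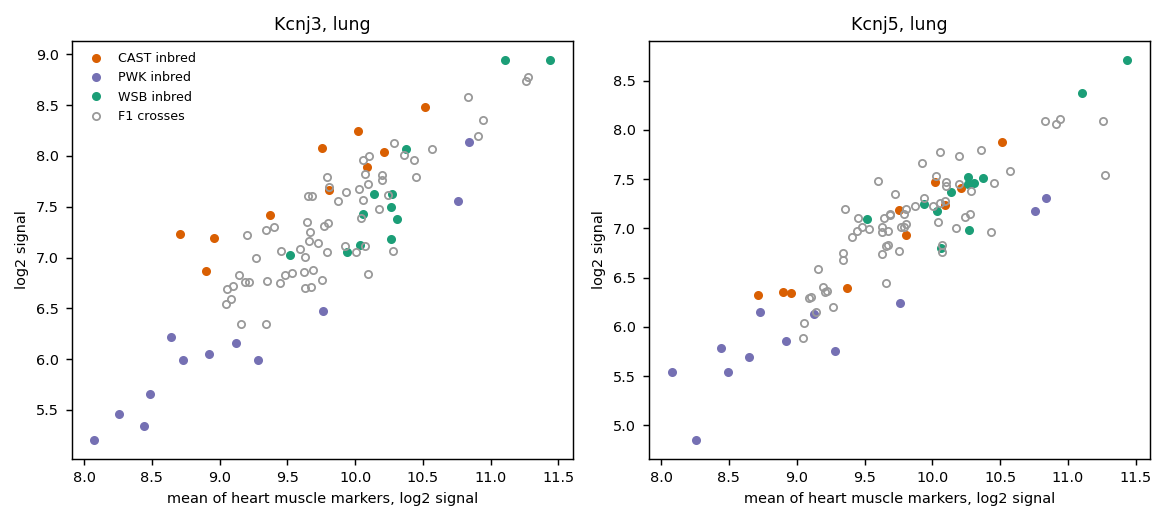
Log2 signal of Kcnj3 and Kcnj5 in lung (y axis) against the mean log2 signal of 9 heart muscle markers on the same array (x axis); each point is 1 lung array, colored by cross. The marker mean spans 8.08 to 11.44, and inbred PWK holds the lowest value of the markers (8.08), of Kcnj3 (5.21) and of Kcnj5 (4.86).

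Strain differences of one gene often ran in opposite directions in different tissues. Of the 20 members tested in at least 3 tissues, 7 were called in opposite directions in some pair of tissues between CAST and PWK (35.0%, against 18.5% of all genes so tested), 9 between CAST and WSB (45.0%, against 21.2%) and 7 between PWK and WSB (35.0%, against 18.9%). Calls in the same direction in at least 3 tissues were found for 4, 3 and 2 members (20%, 15% and 10%, against 28.2%, 32% and 30%). The share with opposite calls is a description of a short list, and tissues came partly from the same animals.

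**Figure D4:**
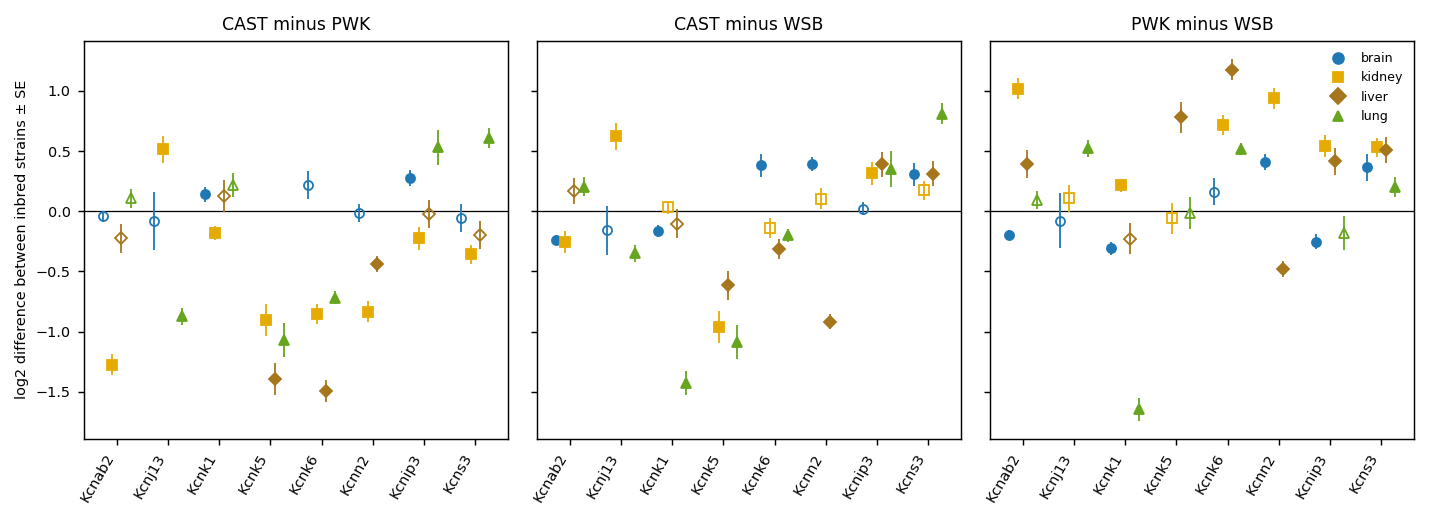
Difference in log2 signal between inbred strains (y axis, ± SE) in each tissue for 8 potassium channel genes, for CAST minus PWK, CAST minus WSB and PWK minus WSB; filled symbols are called at an adjusted p under 0.05. Kcnn2 between PWK and WSB is 0.94 in kidney and -0.48 in liver, while Kcnk6 keeps its sign between CAST and PWK in kidney, liver and lung. Between CAST and WSB, Kcnk6 is called in opposite directions in different tissues.

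Kcnn2, Kcnj13, Kcnj8 and Kcnab2 are examples of opposite directions. For Kcnn2, PWK exceeded WSB by 0.41 ± 0.07 in brain (adjusted p = 5.96e-07) and by 0.94 ± 0.08 in kidney (adjusted p = 2.51e-17), but in liver PWK was lower than WSB by 0.48 ± 0.07 (adjusted p = 9.33e-10). For Kcnj13, CAST exceeded PWK by 0.51 ± 0.11 in kidney and was lower by 0.87 ± 0.07 in lung. Kcnj8 was lower in CAST than in PWK by 0.98 ± 0.12 in liver and higher by 0.44 ± 0.10 in lung. Kcnab2 was lower in PWK than in WSB by 0.19 ± 0.04 in brain and higher by 1.02 ± 0.09 in kidney. Other members were called in 1 direction in 3 tissues between CAST and PWK, lower in CAST. Of these, Kcnk6 was called in opposite directions between CAST and WSB. For Kcnk6 CAST minus PWK was -0.86 ± 0.08 in kidney, -1.49 ± 0.09 in liver and -0.72 ± 0.05 in lung, and for Kcnk5 -0.91 ± 0.13, -1.4 ± 0.13 and -1.07 ± 0.14. For Kcnq1 it was -0.29, -0.70 and -0.34 in these tissues, and for Kcnj10 -0.37 in brain, -0.21 in kidney and -1.41 in liver. No test of a difference between tissues was fitted.

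F1 crosses mostly lay between their parents. For 91 combinations of member, tissue and strain pair with a called inbred difference of at least 0.5, both reciprocal F1 means were between the inbred means in 72 (79.1%), against 87.8% of 18314 such combinations over all genes. In brain this held for 13 of 13 (against 93.38% over all genes) and in kidney for 22 of 29 (75.86%, against 89.05%). In liver it held for 12 of 18 (66.67%, against 85.04%) and in lung for 25 of 31 (80.65%, against 86.73%). The share of the members was thus below that of all genes in kidney, liver and lung, a difference that was not tested. Kcng4 in brain lay between: its F1 medians were 6.65 in CASTxPWK and 6.55 in PWKxCAST, against 4.94 in CAST and 7.29 in PWK. Both F1 means were outside the parents in 4 of the 91 combinations, 2 above and 2 below. Over all genes they were above in 420 and below in 222 of the 18314 combinations. The position was not tested, and the 4 are listed as a description. They were above in Kcnt2 in liver (CAST 5.18, WSB 5.71, F1 5.71 and 6.25) and in Kcnj13 in lung (PWK 10.31, WSB 9.77, F1 10.33 and 10.42). They were below in Kcng1 in lung (CAST 7.14, WSB 7.80, F1 6.98 and 6.94) and in Kcnip3 in lung (CAST 8.23, PWK 7.70, F1 7.53 and 7.41). The lower F1 mean of Kcnt2 and of Kcnj13 lay close to the higher parent.

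Against the mid-parent value, the mean of both reciprocal F1 crosses was called different from the mean of both parents for 28 members in brain (44.4%, against 46.1% of all genes tested), 15 in kidney (53.6%, against 60.6%), 9 in liver (45.0%, against 40.6%) and 17 in lung (58.6%, against 53.8%). Most of these differences were small. Those of at least 0.5 concerned 1 member in brain (Kcnj13; 0.549% of all genes tested), 1 in kidney (Kcne1l; 2.08%), 2 in liver (Kcnk5 and Kcnt2; 4.3%) and 1 in lung (Kcnk1; 2.37%). Kcnk1 in lung was 0.51 ± 0.07 above the mid-parent of PWK and WSB (limma adjusted p = 1.06e-08): the F1 medians were 10.15 and 10.10, close to the WSB median of 10.38 and far from the PWK median of 8.67. Kcnk5 in liver was 0.51 ± 0.09 above that of CAST and WSB (adjusted p = 1.95e-06) and Kcnt2 0.52 ± 0.11 above it (adjusted p = 0.000154). Kcng1 in lung was 0.48 below that of CAST and WSB (adjusted p = 2.96e-11). Kcnip2 in kidney was 0.44 above that of CAST and WSB (adjusted p = 3.47e-10), with F1 medians of 8.03 and 8.11 against 7.26 in CAST and 8.14 in WSB. Kcnj13 in brain was 0.51 ± 0.15 below that of PWK and WSB (adjusted p = 0.0177), and 0.24 below it (adjusted p = 0.061) with the mean of the choroid plexus markers as a covariate.

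Reciprocal F1 crosses have the same autosomal genotype. They differ in the parent that gave each strain's genes, in the mother and, in males, in both sex chromosomes. In males the X chromosome comes from the dam and the Y chromosome from the sire. In brain 0 of 63 members were called between reciprocal crosses by limma (against 1.06% of all genes tested), with 3, 6 and 7 members at an unadjusted p under 0.05 across the 3 strain pairs. In kidney 2 of 28 were called (7.14%, against 5.81%), in liver 2 of 20 (10%, against 14.8%) and in lung 11 of 29 (37.9%, against 42.5%). These shares do not stand above the background.

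Kcne1l, an X-linked accessory subunit also called Kcne5, carried the reciprocal differences in kidney. Among inbred mice it was lowest in PWK, where 6 males ran from 5.10 to 5.35 (median 5.18), higher in CAST, where 6 males ran from 5.80 to 6.48 (median 6.01), and highest in WSB, where 6 males ran from 7.16 to 7.80 (median 7.40). The inbred difference of PWK against WSB was -2.05 ± 0.11 in kidney (limma adjusted p = 3.59e-32) and -1.13 ± 0.12 in brain (adjusted p = 1.71e-12). In F1 males the kidney signal followed the dam. PWKxWSB males ran from 5.07 to 5.51 (n = 6, median 5.41), whereas the 5 WSBxPWK males had 8.02, 8.02, 8.04, 8.49 and 8.55. The 5 CASTxWSB males had 6.08, 6.16, 6.25, 6.28 and 6.60, and the 5 WSBxCAST males 7.83, 7.98, 8.20, 8.20 and 8.21. CASTxPWK males ran from 5.93 to 6.56 (median 6.17) and PWKxCAST males from 4.93 to 5.82 (median 5.51). In none of the 3 pairs did the males of the reciprocal crosses overlap.

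**Figure D5:**
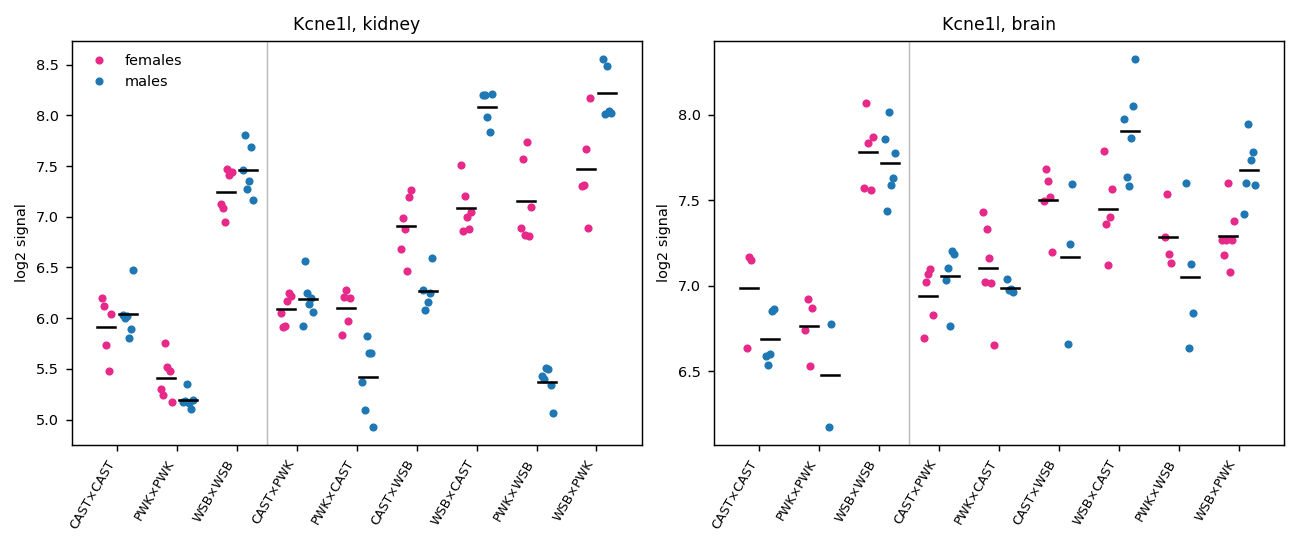
Log2 signal of Kcne1l in kidney and brain by cross (x axis), with females and males marked separately; each point is 1 array. In kidney the males of crosses with a WSB dam lie between 7.16 and 8.55, and those with a WSB sire and another dam between 5.07 and 6.60, while females of reciprocal crosses overlap.

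Kcne1l males of the reciprocal crosses differed in kidney by 0.77 ± 0.15 in the CAST and PWK crosses (limma adjusted p = 0.000502), by -1.81 ± 0.16 in the CAST and WSB crosses (adjusted p = 1.57e-14) and by -2.85 ± 0.16 in the PWK and WSB crosses (adjusted p = 5.72e-28). Females of the same crosses differed by -0.01, -0.17 (adjusted p = 0.991) and -0.32 (adjusted p = 0.47), none of them called, and PWKxWSB females (6.81 to 7.74) overlapped WSBxPWK females (6.89 to 8.17). The difference between males and females was -1.64 ± 0.22 in the CAST and WSB crosses (adjusted p = 6.87e-07) and -2.53 ± 0.22 in the PWK and WSB crosses (adjusted p = 3.04e-15). In the CAST and PWK crosses it was 0.78 (adjusted p = 0.214). The males of WSBxCAST and WSBxPWK also lay above all males of inbred WSB, and the F1 mean of the PWK and WSB crosses was 0.73 ± 0.08 above the mid-parent value over both sexes (adjusted p = 5.29e-13). In brain Kcne1l males differed by -0.74 ± 0.16 between CASTxWSB and WSBxCAST (adjusted p = 0.0113) and by -0.63 ± 0.15 between PWKxWSB and WSBxPWK (adjusted p = 0.044). The first of these rests on 3 CASTxWSB males at 6.66, 7.25 and 7.6, and without the lowest of them (replicate 1) it was -0.48 and no longer called. It was also not called without CASTxWSB replicate 2 or WSBxCAST replicate 10, and the second was not called without any single one of 8 of its 21 arrays. With the runs of neighbouring animal numbers in the labels as a random block the second was -0.59 (adjusted p = 0.492), and it was also not called with median centring (adjusted p = 0.085), without a filter (0.0557) or with the choroid plexus covariate (0.0506). Kcnd1, an A-type channel and the other X-linked member that passed the filter, was tested in brain alone and was called in no reciprocal pair.

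In lung 10 of the 11 called members were called in the CAST and WSB crosses (38.8% of all genes tested were called there), 4 higher and 6 lower with a CAST dam. Kcnk2, a stretch-sensitive leak channel, ran from 7.85 to 8.37 in 11 CASTxWSB arrays (median 7.97) and from 7.19 to 7.85 in 12 WSBxCAST arrays (median 7.61), a difference of 0.44 ± 0.08 (limma adjusted p = 1.52e-05). Kcnj15 ran from 9.09 to 9.88 (median 9.42) and from 8.69 to 9.39 (median 9.01), a difference of 0.43 ± 0.10 (adjusted p = 0.00051). Arrays of the reciprocal crosses met at 7.85 in Kcnk2 and overlapped in Kcnj15. Kcnn4 was lower with a CAST dam by 0.34 (adjusted p = 0.00238). Animals of a cross carry runs of neighbouring numbers in the labels, and with these runs as a random block 3 members (Kcnj15, Kcnj2 and Kcnk2) were called in lung. With CASTxWSB replicate 3 or 9, or WSBxCAST replicate 3 or 4, left out singly, 7 members were called in lung.

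Other reciprocal calls were small or did not hold. Kcnc4 in kidney was 0.30 ± 0.08 higher in CASTxPWK than in PWKxCAST (adjusted p = 0.0214), and 0.25 (adjusted p = 0.99) with the runs as a block, where Kcne1l in the CAST and PWK crosses, called at 0.38 ± 0.11 (adjusted p = 0.0306), was also lost (0.41, adjusted p = 0.839). In liver Kcnk5 was 0.47 ± 0.12 higher in CASTxWSB (adjusted p = 0.00994) and Kcnt2 0.49 ± 0.16 lower (adjusted p = 0.0475), and neither was called with the block (adjusted p = 0.587 and 0.718). Without the arrays that carried markers of another tissue the Kcnt2 difference was -0.49 (adjusted p = 0.0628) and no longer called. Leaving out single arrays ended the call of Kcnt2 for 15 of 23 arrays, that of Kcnc4 for 5 of 23 and that of Kcne1l in the CAST and PWK crosses for 6 of 23. Kcnq1 and Kcnk9 are imprinted genes, expressed from the maternal copy in some tissues. Kcnk9 in brain differed between reciprocal crosses by 0.03, 0.03 and -0.08, with no call. Kcnq1 differed by -0.16 to 0.13 in kidney, liver and lung and was called once, in the PWK and WSB crosses in lung (0.13 ± 0.04, adjusted p = 0.0491). The total signal does not show which copy was expressed.

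Sex differences were few. Females and males, compared over all 9 crosses, differed in 0 of 63 members in brain (limma; against 0.0708% of all genes tested; 6 members had an unadjusted p under 0.05), 5 of 28 in kidney (17.9%, against 10.9%), 2 of 20 in liver (10%, against 13.8%) and 1 of 29 in lung (3.45%, against 3.52%). Kcnt2 in liver had the largest difference: 49 arrays of females ran from 4.79 to 7.21 (median 5.85) and 52 of males from 4.97 to 7.93 (median 6.30). Females were lower by 0.46 ± 0.08 (adjusted p = 1.77e-06), and were higher in 0 of 9 crosses, although the sexes overlapped widely. Kcnip2 in kidney was higher in females by 0.22 ± 0.04 (adjusted p = 5.91e-06), with 6.60 to 8.55 in females (median 7.88) and 7.0 to 8.22 in males (median 7.6), and in 8 of 9 crosses. The other calls were 0.13 for Kcnj5, Kcnt1 and Kcnab2 and -0.06 for Kcnj16 in kidney, 0.25 for Kcnj16 in liver (adjusted p = 0.0489, not called when any single one of 56 arrays was left out, and 0.24 with an adjusted p of 0.0562 without the arrays of mismatched sex) and 0.13 for Kcnj13 in lung (adjusted p = 0.0183). With the runs of animal numbers as a block there was 1 call in kidney and 1 in liver.

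Genes that work with potassium channels or move potassium were listed under other names. Of 33 listed 28 were measured. In brain 10 led (35.7%, against 10.5% of all genes), in kidney 4 (14.3%, against 2.95%) and in lung 2 (7.14%, against 6.55%). Dpp6 and Dpp10, auxiliary subunits of Kcnd channels, led in brain with means of 11.24 and 10.20 there and at most 5.47 and 4.66 elsewhere. In kidney the leaders were Slc12a1, the thick limb cotransporter that recycles potassium with Kcnj1 (12.49 in kidney, 4.40 to 5.14 elsewhere), the sodium pump subunit Fxyd2 (11.87), the kinase Wnk4 (10.05) and Lrrc52 (7.02). Lrrc26, an auxiliary subunit of the Kcnma1 channel, led in lung at 9.11. Between inbred strains 13 of 21 tested partner genes were called in brain (61.9%, against 70.7% of all genes tested). In kidney 17 of 20 were called (85%, against 84.7%). Atp4a, a proton-potassium pump subunit, had the widest difference in kidney, with CAST 2.94 ± 0.09 below PWK. Of the sodium and calcium channel genes 23 of 34 led in brain (67.6%, against 10.5% of all genes). Their median brain level was 3.84 above kidney, 4.50 above liver and 3.87 above lung. The difference between these lists was not tested.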

How the data were processed

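The labels give arrays of biotin-labelled total RNA (Affymetrix Mouse Gene 1.1 ST). The authors deposited 1 table of log2 signals for 35556 probe clusters and 386 arrays, made with RMA in Affymetrix Expression Console, per the submitters' processing notes; whether this was done over all tissues at once is not stated there. Clusters with a single gene symbol (21218) were reduced to 18820 genes by their highest mean, and 2 potassium channel genes (Kcnd3 and Kcnh8) had 2 clusters. Replicates are separate animals. Effects of strain sequence differences on probe binding were not analysed here.

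Linear models were fitted by limma 3.58.1 (R 4.3.3; moderated by eBayes with a variance trend), with Benjamini-Hochberg adjustment over all genes of a contrast. Tissues were compared on 36 cross-by-tissue means without a filter, and strains, crosses and sexes within a tissue on 18 cross-by-sex means over genes at or above the 40th percentile. A calculation on simulated data checked the scripts. The genes named are, by rule, the widest leaders per tissue, the extreme and smallest-p members of each contrast, X-linked and imprinted members and members with known roles in these tissues. Others named beside a count or an overlap were chosen after their values were seen. The members and lists were chosen with earlier results of these data known. Alternatives covered scaling, filters, weights, blocks, covariates, doubted arrays and each array left out. The animal links arrays of different tissues, and its consensus correlation was 0.031.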

Additional observations from a re-analysis of the deposited data

Results flagged for a closer look

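Kcne1l in kidney gave every result set apart here. Among 6 CASTxCAST males, replicate 11 had a log2 signal of 6.48, away from the next at 6.03, a gap of 0.656 of the group's range. Among 6 PWKxWSB males, replicate 11 had 5.07, with the nearest at 5.34 and a gap of 0.628 of the range. These were 2 of 85 groups examined in this way, and chance sets apart about 1 in 20 groups. The difference between reciprocal crosses was not the same in males and females: the male difference minus the female difference was -1.64 in the CAST and WSB crosses and -2.53 in the PWK and WSB crosses, both called by limma as a test of the difference itself. No cause was tested.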

How the results depend on the processing

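Leads in brain, kidney, liver and lung were 48, 5, 0 and 7 with the animal as a replicate block. A filter on the mean over all arrays of all tissues, at its 40th percentile, left 32 members. Of these 18 led in brain, 3 in kidney and 3 in lung. With a lead of at least 2 log2 units 1 member led in lung. The share of all genes that led was not computed under these alternatives, so the counts of leads only describe the settings. The filter changes the genes tested. At the 60th percentile and without a filter, members called between inbred strains were 10 of 12 (83.3%, against 83.9% of all genes) and 60 of 87 (69.0%, against 67.1%) in lung, 7 of 8 (87.5%, against 85.8%) and 56 of 87 (64.4%, against 64.1%) in kidney, and 4 of 4 (against 83%) and 28 of 87 (32.2%, against 55.1%) in liver. Differences of at least 0.5 were 7 (58.3%, against 20.6%) and 30 (34.5%, against 23.3%) in lung, 1 (12.5%, against 19.8%) and 27 (31.0%, against 19.9%) in kidney, 4 (against 25.3%) and 14 (16.1%, against 21.1%) in liver, and 4 of 44 in brain at the 60th percentile (9.09%, against 11.1%). Members called against the mid-parent at these 2 filters were 6 of 12 and 32 of 87 in lung, and 5 of 8 and 26 of 87 in kidney. In liver they were 3 of 4 and 14 of 87, and 3 of 20 with the runs of animal numbers as a block. For the mid-parent counts, and the reciprocal and sex counts that follow, shares over all genes were not computed under the alternatives. The filters change the number of members tested in the same way there, so these counts only describe the settings. Between reciprocal crosses, array weights gave 4 calls in brain and 4 in liver. Kidney had 0 at the 60th percentile and 1 with the runs as a block. Liver had 0 with that block and 1 with an additive model, at the 60th percentile, without a filter or without arrays with markers of another tissue. Lung had 3 at the 60th percentile and 3 with the block. Between the sexes kidney had 9 calls with array weights or without a filter, 3 with the covariate, and 1 at the 60th percentile or with the block. Liver had 0 at the 60th percentile and 1 with an additive model, median centring, quantile normalisation, no variance trend, no filter, the block or without arrays of mismatched sex, and lung had 2 with median centring. Kcnt1 in kidney between CAST and WSB was 0.17 with the covariate of other-cell markers. The cause of these changes was not tested. With each array left out in turn, members called between inbred strains were 40 to 48 in brain, 24 to 25 in kidney, 13 to 15 in liver and 25 to 27 in lung; differences of at least 0.5 were 7 to 9, 13 to 15, 8 to 10 and 16 to 17; reciprocal calls 0 to 0, 1 to 2, 1 to 2 and 7 to 12; mid-parent calls 22 to 33, 14 to 17, 8 to 9 and 16 to 19; and sex calls 0 to 0, 4 to 5, 1 to 3 and 1 to 1. Of 66 named inbred differences 62 kept their call with the runs as a block and 4 lost it, and of 10 named reciprocal differences 4 kept it and 6 lost it. The choice without arrays of another tissue was added after seeing the data. The number of arrays, 2 to 7 per cross, sex and tissue, limits small differences.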
